A study of Mus musculus with 6 samples.

Results

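The classical interleukin-1 (IL-1) genes were followed here in skin of mice without and with Tnip1. They are 6 genes, taken by symbol from the 34590 gene symbols in the count files: the agonists Il1a and Il1b, the antagonist Il1rn, the signalling receptor Il1r1, the decoy receptor Il1r2 and the co-receptor Il1rap. All 6 passed the filter on low counts, which left 16691 genes for testing. Whole-skin RNA was sequenced from 3 Tnip1-/- mice and 3 Tnip1+/+ mice of the C57BL/6 background, and imiquimod was applied to the skin of every animal for 2 days. Imiquimod is a Toll-like receptor 7 agonist that inflames mouse skin in a psoriasis-like way. Tnip1 encodes a partner of the deubiquitinase A20 that restrains NF-kB signalling. The labels give neither the part of Tnip1 that was deleted, nor the age or sex of the animals, and untreated skin was not analysed here. The question was whether loss of Tnip1 changed the balance between IL-1 agonists and antagonist, and between signalling and decoy receptor transcripts.

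IL-1 alpha and IL-1 beta bind the receptor IL1R1, which then recruits the co-receptor IL1RAP and signals through MYD88 and IRAK kinases to NF-kB. The antagonist IL-1RA, made from Il1rn, occupies IL1R1 without recruiting the co-receptor. The decoy receptor IL1R2 binds IL-1 but has no cytoplasmic signalling domain. In skin, keratinocytes store IL-1 alpha, which is released on injury, whereas IL-1 beta is made as a precursor, chiefly by myeloid cells, and is cut by caspase-1 in inflammasomes. Gene counts show transcripts, and not the cutting or release of either cytokine.

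The libraries held 19529970 to 25864730 gene counts in Tnip1-/- skin and 24701074 to 31005554 in Tnip1+/+ skin. Tnip1 itself had 35 to 47 counts in Tnip1-/- libraries and 703 to 938 in Tnip1+/+ libraries, so the libraries matched their genotype labels. In the labels the library identifiers of the genotypes carry different prefixes (NORM for Tnip1-/- and IMQ for Tnip1+/+), although all 6 are labelled as imiquimod treated, so genotype and identifier series cannot be told apart. Xist and Ddx3y counts read Tnip1-/- replicates 1 and 2 as male and replicate 3 as female, and Tnip1+/+ replicate 1 as male and replicates 2 and 3 as female. The keratinocyte markers Krt5, Krt14, Krt1, Krt10, Trp63, Dsg3, Lor and Perp were present in every library. Their summed level was 21019 to 24429 CPM (gene counts scaled to library size with TMM factors) in Tnip1-/- skin and 7513 to 12137 CPM in Tnip1+/+ skin. Krt14 weighs most in this sum, with means of 11551 CPM in Tnip1-/- skin and 1985 CPM in Tnip1+/+ skin. The markers did not move alike: 5 were called higher, 1 lower (Krt10, 1717 against 3307 CPM) and 2 not called (Trp63 and Lor). The summed level of 12 neutrophil markers was 127 to 217 CPM in Tnip1-/- skin and 22.4 to 41.0 CPM in Tnip1+/+ skin. For 7 muscle markers it was 2981 to 4318 CPM against 8827 to 15560 CPM, and for 6 fat markers 72.3 to 1245 CPM against 1966 to 3759 CPM, Tnip1-/- before Tnip1+/+. The lowest fat value was that of Tnip1-/- replicate 2, where Adipoq stood at 0.593 CPM, against 115.7 and 91.5 CPM in Tnip1-/- replicates 1 and 3. In whole skin, fewer cells of a type and less RNA per cell cannot be told apart.

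The stretches of 250 bases before the annotated transcription starts of the 4 genes that changed are shown because 3 of these genes rose together and the fourth fell. They are from RefSeq (build GRCm38.p6, a later build than that of the counts), written 5′ to 3′ on the strand of the gene, with capitals for a match to a searched motif. The Il1a window lies on the minus strand at chr2:129309973-129310222, and that of Il1b on the minus strand at chr2:129371140-129371389. For Il1rn the first of 3 annotated starts is shown, on the plus strand at chr2:24336610-24336859, and for Il1r2 the plus strand at chr1:40085843-40086092.
Il1a: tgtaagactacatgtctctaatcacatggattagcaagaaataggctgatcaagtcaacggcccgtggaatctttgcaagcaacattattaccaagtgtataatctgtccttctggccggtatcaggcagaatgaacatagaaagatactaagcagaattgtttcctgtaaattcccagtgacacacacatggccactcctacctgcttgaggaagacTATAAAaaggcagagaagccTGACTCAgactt
Il1b: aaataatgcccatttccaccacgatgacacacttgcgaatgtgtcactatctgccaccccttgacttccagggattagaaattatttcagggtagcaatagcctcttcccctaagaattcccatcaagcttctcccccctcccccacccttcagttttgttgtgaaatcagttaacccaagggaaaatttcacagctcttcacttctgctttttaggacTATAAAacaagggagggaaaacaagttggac
Il1rn: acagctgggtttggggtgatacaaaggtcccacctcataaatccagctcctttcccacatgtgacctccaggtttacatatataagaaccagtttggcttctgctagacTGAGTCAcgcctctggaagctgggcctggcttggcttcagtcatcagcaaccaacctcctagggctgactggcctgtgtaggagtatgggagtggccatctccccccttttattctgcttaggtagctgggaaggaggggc
Il1r2: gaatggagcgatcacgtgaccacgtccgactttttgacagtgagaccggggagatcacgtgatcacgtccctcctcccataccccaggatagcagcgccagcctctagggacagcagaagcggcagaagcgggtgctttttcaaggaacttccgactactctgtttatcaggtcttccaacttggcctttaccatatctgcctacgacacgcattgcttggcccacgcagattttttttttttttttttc
The motifs were TATAAA, the AP-1 motif TGANTCA, the C/EBP core TTGCNNAA and the kappa-B consensus, each read on both strands, and no match overlapped another. Il1a held a TATAAA starting 32 bases before the start site and a TGACTCA starting 12 bases before it. Il1b held a TATAAA starting 31 bases before the start site, and the Il1rn window a TGAGTCA starting 141 bases before it. None of the 4 motifs was found in the Il1r2 window. That window lies inside the GENCODE span of Il1r2 (chr1:40074079-40125231), so the bases before the start of that span were not searched. All 6 genes had windows, 9 in all. TATAAA was found in 2 of them and the AP-1 motif in 2. The C/EBP core was found in 1, at the first start of Il1r1, and the kappa-B consensus in 1, at the second start of Il1r1. The windows at the later starts of Il1rn held none of the 4 motifs. Over all 32851 promoter windows of the same length, TATAAA was found in 12.4%, the AP-1 motif in 6.75%, the C/EBP core in 9.56% and the kappa-B consensus in 3.90%.

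Of the 6 IL-1 genes, 3 rose in Tnip1-/- skin (Il1a, Il1b and Il1rn), 1 fell (Il1r2), and Il1r1 and Il1rap did not pass the test. Each gene was tested with edgeR (quasi-likelihood fit), p-values were adjusted by Benjamini and Hochberg's method over all 16691 genes, and the threshold was 0.05. It called 45.1% of all tested genes, 22.3% as higher and 22.7% as lower. The median log2 fold change was 1.03 over the 6 genes and -0.04 over all tested genes. CPM values of the genotypes did not overlap for 5 of the 6 genes, and did not overlap for 59.8% of all tested genes.

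Il1b, the agonist of myeloid cells and inflammasomes, moved most among the 6. It stood at 76.4, 64.1 and 66.2 CPM in Tnip1-/- replicates 1, 2 and 3, and at 11.5, 12.9 and 4.55 CPM in Tnip1+/+ replicates 1, 2 and 3. The Tnip1-/- libraries lay close together and far above every Tnip1+/+ library, of which replicate 3 was the lowest. The means were 68.9 ± 6.59 CPM and 9.65 ± 4.48 CPM (SD, n = 3 each), and the log2 fold change was 2.83 (SE 0.36, adjusted p = 0.00184, edgeR). Of all tested genes, 1.5% had a larger log2 fold change. With either sex alone, the log2 difference was 2.61 in males and 3.11 in females. Il1b lies at chr2:129364570-129371139, on the minus strand (GRCm38). Neutrophil markers moved with it, and all 10 tested were higher in Tnip1-/- skin. Monocyte and macrophage markers were mixed: of 9 tested, 3 were higher and 6 were not called, while 22.3% of all tested genes were higher. Of the 6, Emr1, Itgam and Ccr2 had log2 fold changes above 0, and Cd68 (-0.44), Cd163 (-0.26) and Ly6c2 (-0.70) below it. The summed level of the 9 was 2199 to 2594 CPM in Tnip1-/- skin and 1138 to 1741 CPM in Tnip1+/+ skin. The part of these markers in the Il1b value was not tested.

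Il1a, the agonist stored by keratinocytes, stood at 115.5, 126.8 and 75.1 CPM in the Tnip1-/- libraries and at 34.9, 35.9 and 32.9 CPM in the Tnip1+/+ libraries. The Tnip1+/+ libraries were nearly equal, and the lowest Tnip1-/- library, replicate 3, still lay above them. Its log2 fold change was 1.61 (SE 0.20, adjusted p = 0.00159, edgeR), on means of 105.8 ± 27.2 CPM and 34.6 ± 1.55 CPM (SD, n = 3 each). Il1a lies beside Il1b, on the minus strand at chr2:129299610-129309972 (GRCm38). Of the 8 keratinocyte markers, 5 were higher and 1 lower in Tnip1-/- skin, and their part in the Il1a value was not tested.

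Il1rn, whose product blocks IL1R1, rose as well. It lies on the same chromosome, on the plus strand at chr2:24336853-24351494 (GRCm38). Its values were 146, 151 and 107 CPM in the Tnip1-/- libraries and 61.9, 56.2 and 48.2 CPM in the Tnip1+/+ libraries, and the genotypes did not overlap. The log2 fold change was 1.28 (SE 0.17, adjusted p = 0.00197, edgeR), the smallest of the 3 ligand genes. As for Il1a, Tnip1-/- replicate 3 was the lowest of its genotype. All 3 ligand genes kept their calls without any single library, with log2 fold changes of 2.51 to 3.10 for Il1b, 1.48 to 1.82 for Il1a and 1.20 to 1.43 for Il1rn. Within males and females, the log2 difference was 1.79 and 1.13 for Il1a, and 1.26 and 1.04 for Il1rn. The ligand genes also kept their calls with a muscle and fat score as covariate, at 3.02 for Il1b, 1.33 for Il1a and 1.09 for Il1rn.

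Il1r2, the decoy receptor gene on the plus strand at chr1:40074079-40125231 (GRCm38), was the member that fell. It stood at 76.6, 60.1 and 48.5 CPM in the Tnip1-/- libraries and at 151, 83.8 and 91.9 CPM in the Tnip1+/+ libraries. The genotypes did not overlap, but the highest Tnip1-/- library was close to the lowest Tnip1+/+ library, and Tnip1+/+ replicate 1 stood well above the rest. The log2 fold change was -0.82 (SE 0.26, adjusted p = 0.0402, edgeR), and 18.2% of all tested genes had a lower one. This call is not firm: it ended without Tnip1-/- replicate 2 (-0.78) or 3 (-0.66), without Tnip1+/+ replicate 1 (-0.50) or 3 (-0.92), and with the muscle and fat score as covariate (-0.89, adjusted p = 0.186, edgeR). The order was the same within each sex, with a log2 difference of -1.15 in males and -0.86 in females. Each of these values rests on 1 library of a genotype. In males that is Tnip1+/+ replicate 1, the highest for Il1r2, and in females Tnip1-/- replicate 3, the lowest. With sex as a covariate, an alternative chosen after seeing the data, Il1r2 stood at -1.0 (adjusted p = 0.00601, edgeR). The 10 tested neutrophil markers were all higher in Tnip1-/- skin while Il1r2 was lower. The part of the muscle, fat, neutrophil and keratinocyte markers in the Il1r2 value was otherwise not tested.

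Il1r1, the signalling receptor gene on the plus strand at chr1:40225080-40317257 (GRCm38), did not pass the test (log2 fold change 0.79, SE 0.31, adjusted p = 0.0735, edgeR). Its values were 116, 64.3 and 47.0 CPM in the Tnip1-/- libraries, a wide spread, and 43.8, 42.8 and 45.6 CPM in the Tnip1+/+ libraries, a narrow one. The genotypes did not overlap, although Tnip1-/- replicate 3 was barely above the Tnip1+/+ libraries. Without Tnip1-/- replicate 1 the log2 fold change was 0.35, and without Tnip1-/- replicate 3 it was 1.05 and passed (adjusted p = 0.0236, edgeR). The log2 difference was 0.98 in males and 0.09 in females. DESeq2 called the gene higher (0.80, adjusted p = 0.0310).

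Il1rap encodes the co-receptor that IL1R1 shares with the IL-33 and IL-36 receptors, and it moved least. The gene lies on the plus strand at chr16:26581704-26730117 (GRCm38). It stood at 84.2, 85.1 and 74.3 CPM in the Tnip1-/- libraries and at 75.7, 59.7 and 59.0 CPM in the Tnip1+/+ libraries. The genotypes overlapped between Tnip1-/- replicate 3 and Tnip1+/+ replicate 1, and the log2 fold change was 0.32 (SE 0.13, adjusted p = 0.0844, edgeR). It passed without Tnip1+/+ replicate 1 (0.47, adjusted p = 0.0261, edgeR), and its log2 fold change was 0.17 with library totals in place of TMM factors. The log2 difference was 0.16 in males and 0.32 in females.

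**Figure D1:**
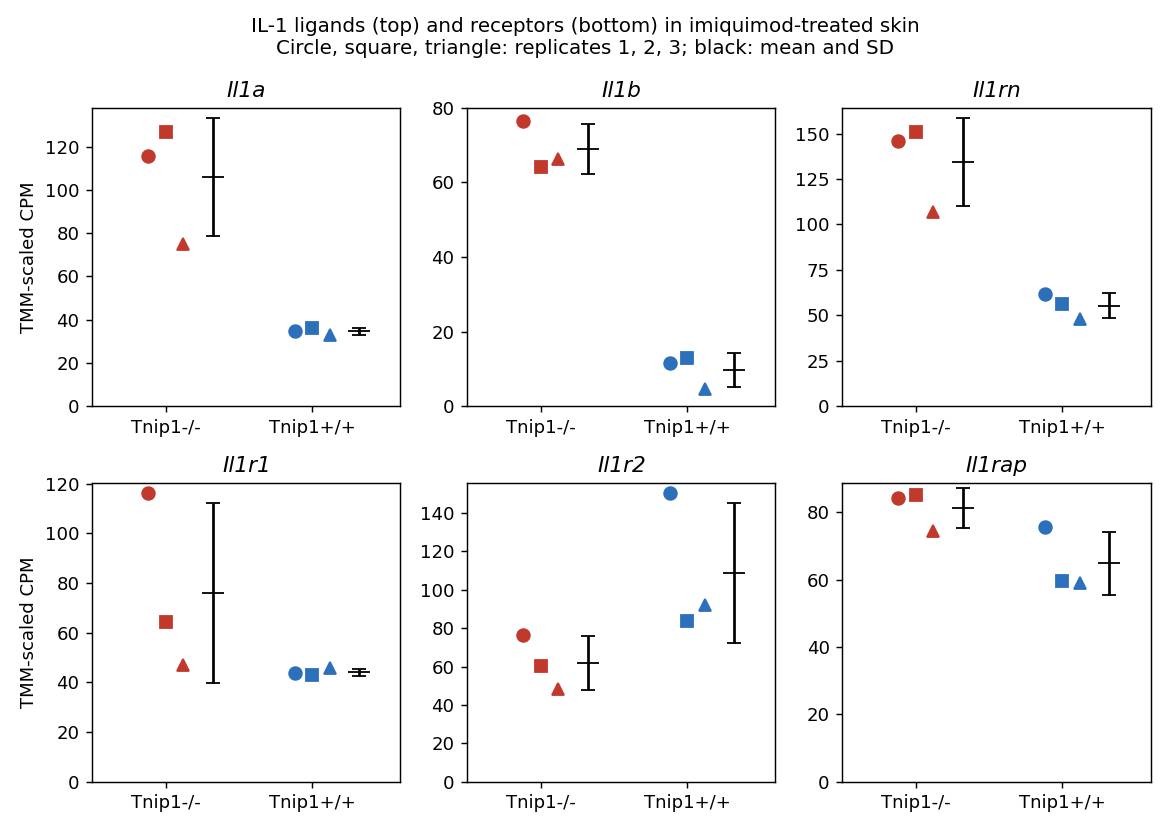
TMM-scaled CPM of each IL-1 gene by library, with Tnip1-/- in red and Tnip1+/+ in blue, replicates 1 to 3 as circle, square and triangle, and the mean with SD in black. The Tnip1-/- libraries lie above all Tnip1+/+ libraries for Il1a, Il1b, Il1rn and Il1r1 and below them for Il1r2, while the genotypes overlap for Il1rap.

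Levels of different genes were compared as CPM per kb of exon. In Tnip1-/- skin the order was Il1a (53.6 ± 13.8 CPM per kb), Il1b (50.8 ± 4.86), Il1rn (49.7 ± 8.95), Il1r2 (43.5 ± 9.95), Il1r1 (12.4 ± 5.91) and Il1rap (9.44 ± 0.692; SD, n = 3). Between neighbours in this order, the ranges over libraries overlapped except between Il1r2 and Il1r1. In Tnip1+/+ skin Il1r2 was highest at 76.7 ± 25.7 CPM per kb, followed by Il1rn (20.5 ± 2.55), Il1a (17.5 ± 0.786), Il1rap (7.53 ± 1.10), Il1r1 (7.21 ± 0.238) and Il1b (7.12 ± 3.30; SD, n = 3). There the steps from Il1r2 to Il1rn and from Il1a to Il1rap were wider than the ranges over libraries. Thus, with exon lengths, the range of Il1b overlapped those of the other ligands and of Il1r2 in Tnip1-/- skin. In Tnip1+/+ skin it overlapped those of Il1r1 and Il1rap. Il1b was the lowest of the 6 in Tnip1+/+ replicate 3, and above both Il1r1 and Il1rap in Tnip1+/+ replicate 2. These levels depend on the length used, since the exons of Il1rap add up to 8.60 kb but its longest transcript is 4.52 kb. With the longest transcripts, Il1rap came to 18.0 ± 1.32 CPM per kb in Tnip1-/- skin and 14.3 ± 2.08 in Tnip1+/+ skin (SD, n = 3 each), and Il1rn led in Tnip1-/- skin. In Tnip1+/+ skin Il1rap then ranged from 13.1 to 16.7 CPM per kb and overlapped Il1a. It no longer overlapped Il1b (3.36 to 9.55), which was below Il1rap in every Tnip1+/+ library.

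Among the ligand transcripts, counted per kb, Il1b made up 33.4 ± 5.20% in Tnip1-/- skin and 15.3 ± 5.67% in Tnip1+/+ skin (SD, n = 3 each). Il1rn made up 31.2% to 33.3% in Tnip1-/- libraries and 42.8% to 47.1% in Tnip1+/+ libraries. Il1a overlapped, at 30.1% to 38.4% in Tnip1-/- libraries and 36.1% to 44.0% in Tnip1+/+ libraries. Among the receptor transcripts, Il1r2 made up 65.2% to 67.7% in Tnip1-/- libraries and 80.9% to 86.9% in Tnip1+/+ libraries. Counted per kb, the decoy receptor was thus the most abundant of the 3 receptor transcripts in every library. In plain counts, Il1r2 had 4123, Il1r1 5120 and Il1rap 5384 over the Tnip1-/- libraries. Over the Tnip1+/+ libraries these counts were 9969, 3951 and 5875.

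**Figure D2:**
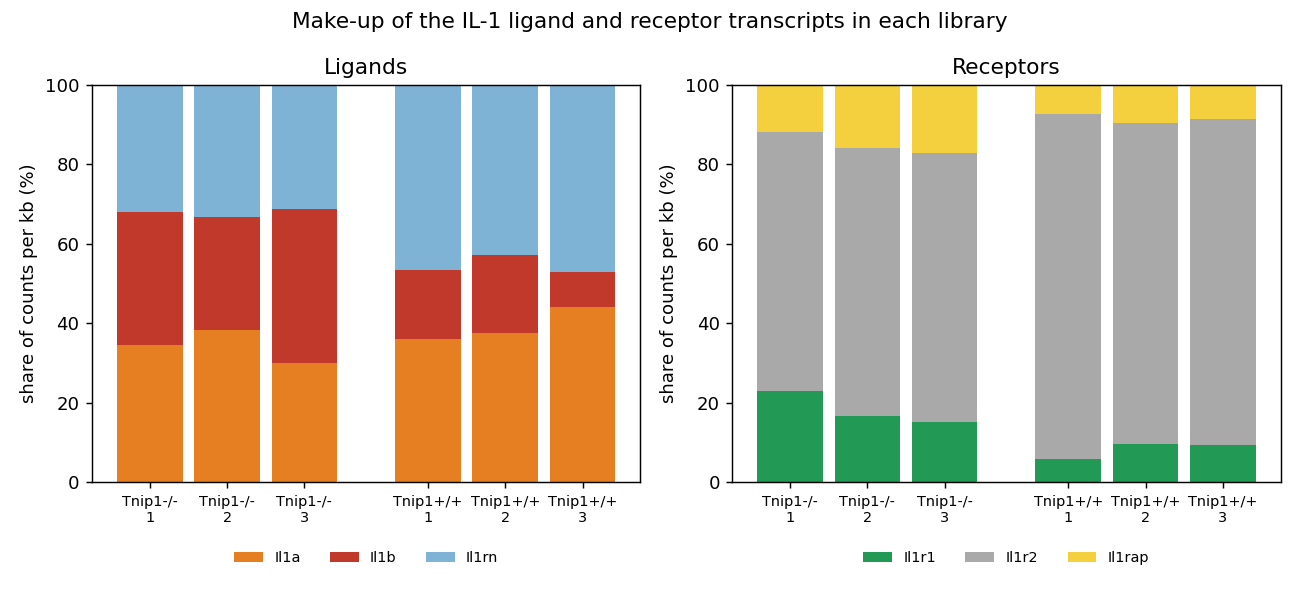
Share in percent of counts per kb taken by each ligand gene (left) and each receptor gene (right) in each library, Tnip1-/- libraries to the left of Tnip1+/+ libraries. Il1b takes 28.3% to 38.7% of the ligand bar in Tnip1-/- libraries and 8.88% to 19.7% in Tnip1+/+ libraries, and Il1r2 the largest part of every receptor bar.

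The ratio of agonist to antagonist transcripts, Il1a plus Il1b over Il1rn per kb, was higher in Tnip1-/- skin. It was 2.13, 2.0 and 2.20 in Tnip1-/- replicates 1, 2 and 3, and 1.14, 1.34 and 1.12 in Tnip1+/+ replicates 1, 2 and 3. The ratio varied little within each genotype and did not overlap between them. The mean log2 difference was 0.82 (SE 0.09), a 1.76-fold higher ratio, with an exact two-sided permutation p of 0.1. This is the smallest p that 3 against 3 libraries allow, and it held for all 6 ratios computed (adjusted permutation p = 0.1 each), so no ratio could pass the threshold. The 6 ratios share genes, so they are not independent of each other.

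Each agonist was also set against the antagonist alone. The ratio of Il1b to Il1rn was 1.04, 0.848 and 1.24 in the Tnip1-/- libraries and 0.370, 0.460 and 0.189 in the Tnip1+/+ libraries, with a mean log2 difference of 1.7 (SE 0.42). For Il1a over Il1rn the values were 1.08, 1.15 and 0.964 in the Tnip1-/- libraries and 0.773, 0.877 and 0.936 in the Tnip1+/+ libraries. These genotypes nearly touched, and the log2 difference was 0.31 (SE 0.11). The agonists differed in this, as Il1b over Il1a was 0.736 to 1.28 in Tnip1-/- libraries and 0.202 to 0.525 in Tnip1+/+ libraries, a log2 difference of 1.39 (SE 0.50). Tnip1+/+ replicate 3 had the lowest Il1b, and without it the last difference was 0.95.

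The ratio of the signalling receptor to the decoy, Il1r1 over Il1r2 per kb, was 0.353, 0.249 and 0.225 in the Tnip1-/- libraries and 0.0675, 0.118 and 0.115 in the Tnip1+/+ libraries. It was below 1 in every library, so decoy transcripts, counted per kb, outnumbered those of the signalling receptor in both genotypes. The ratio was 2.78-fold higher in Tnip1-/- skin (log2 difference 1.47, SE 0.33), and the genotypes did not overlap. The co-receptor over the decoy, Il1rap over Il1r2, was 0.181, 0.234 and 0.253 in the Tnip1-/- libraries and 0.0829, 0.118 and 0.106 in the Tnip1+/+ libraries. Its log2 difference was 1.13 (SE 0.21). Without Tnip1+/+ replicate 1, the library with the highest Il1r2, the differences were 1.21 for Il1r1 over Il1r2 and 0.98 for Il1rap over Il1r2. Within each sex all 6 ratios were higher in Tnip1-/- skin, but by unequal amounts on the log2 scale. The agonist to antagonist ratio differed by 0.85 in males and 0.84 in females, and Il1rap over Il1r2 by 1.31 in males and 1.18 in females. Il1a over Il1rn differed by 0.53 in males and by only 0.09 in females. Il1b over Il1rn differed by 1.35 in males and 2.07 in females, Il1b over Il1a by 0.82 in males and 1.98 in females, and Il1r1 over Il1r2 by 2.13 in males and 0.94 in females. With 1 library of a genotype in each sex, the difference between the sexes was not tested.

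**Figure D3:**
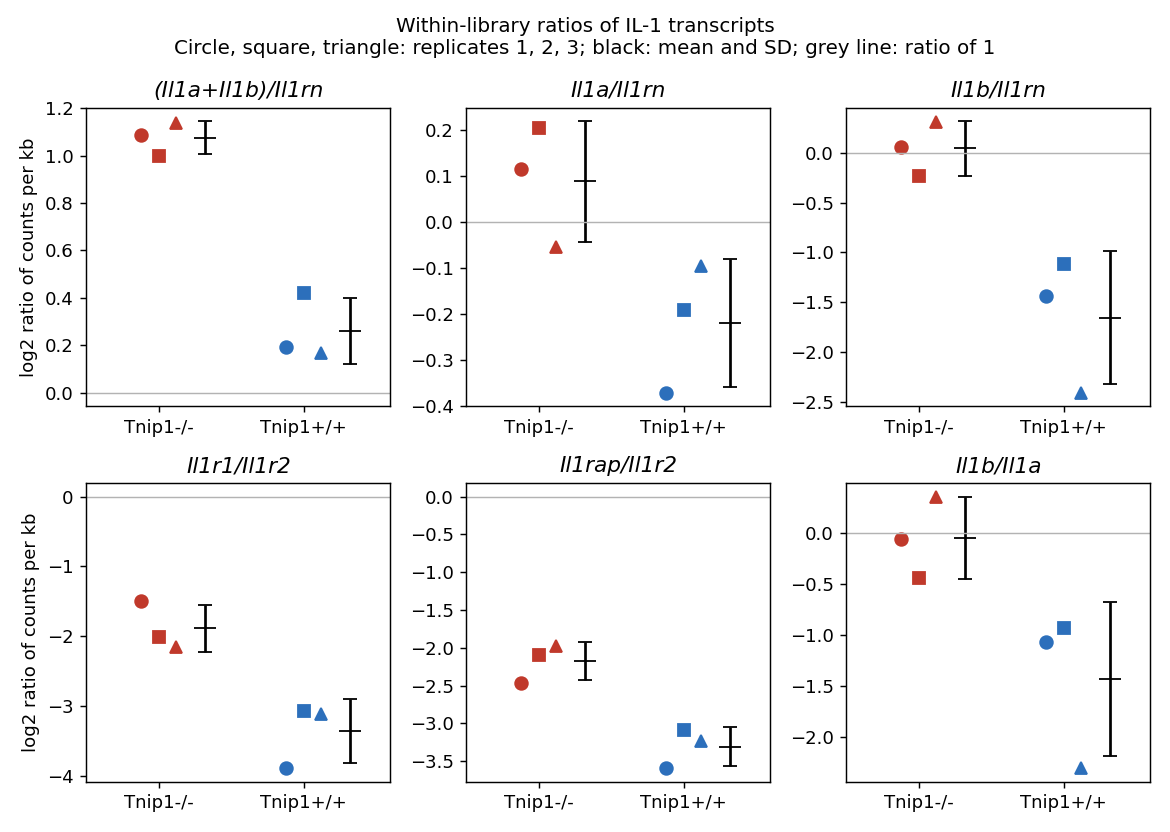
Log2 ratio of counts per kb for 6 pairs of IL-1 transcripts by library, Tnip1-/- in red and Tnip1+/+ in blue, with the mean and SD in black and a grey line at a ratio of 1. For all 6 ratios every Tnip1-/- library lies above every Tnip1+/+ library, most narrowly for Il1a over Il1rn. The ratios share genes and are not independent of each other. Both receptor ratios are below 1 throughout.

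Of the genes that process or release IL-1 or inhibit such proteases, 7 of 16 tested rose and 0 fell. Their median log2 fold change was 0.43, against -0.04 for all genes. The share called in either direction was 43.8%, close to the 45.1% of all tested genes, of which 22.3% were called as higher. Nlrp3, the sensor of the main IL-1 beta inflammasome, stood at 9.01, 7.62 and 9.71 CPM in the Tnip1-/- libraries and at 2.76, 2.01 and 0.777 CPM in the Tnip1+/+ libraries, which did not overlap (log2 fold change 2.23, SE 0.41). Pycard, the inflammasome adaptor, also rose, with 126 ± 22.6 CPM in Tnip1-/- skin and 48.5 ± 6.33 CPM in Tnip1+/+ skin (SD, n = 3 each; log2 fold change 1.38). Casp1, the protease that cuts IL-1 beta, did not pass the test (0.42, adjusted p = 0.0780, edgeR). Serpinb1a, an inhibitor of neutrophil proteases, rose by 1.89, and Capn2, the catalytic subunit of a calpain, the protease class that cuts IL-1 alpha, rose by 1.15. The other called genes were Casp4 (0.90), the protease gene Ctsc (0.69) and Capn1 (0.45). The number higher was 4 without Tnip1-/- replicate 1 or 2 or Tnip1+/+ replicate 3. Of the 7, Nlrp3, Pycard, Serpinb1a and Capn2 kept their calls without any single library. Casp4 lost its call without Tnip1-/- replicate 1 (0.66) or 2 (0.92) or Tnip1+/+ replicate 2 (0.87) or 3 (0.71), and Capn1 without any Tnip1-/- library (0.49, 0.47 and 0.41) or Tnip1+/+ replicate 3 (0.51). Ctsc kept its call without Tnip1+/+ replicate 2 (1.00) but lost it without any other library (0.57 to 0.76). The neutrophil proteases Ctsg and Elane, with 17 and 2 counts over the Tnip1-/- libraries and 14 and 6 over the Tnip1+/+ libraries, were too low to test.

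Of 20 genes that carry or regulate the signal from IL1R1, inhibitors included, 5 rose and 3 fell (median log2 fold change 0.11). The share called was 40.0%, against 45.1% of all genes. The adaptor gene Myd88 stood at 70.9, 45.7 and 42.4 CPM in the Tnip1-/- libraries and at 31.0, 22.4 and 23.6 CPM in the Tnip1+/+ libraries, and the genotypes did not overlap (log2 fold change 1.05, SE 0.23, adjusted p = 0.0109, edgeR). Mapk14, which encodes the kinase p38 alpha, rose by 0.69 and Tollip, an IRAK-binding regulator, by 0.64. The kinase genes Chuk (0.37) and Map3k7 (0.33) also rose. Peli2, an E3 ligase that acts on IRAK kinases, fell by 0.87, Tab2, a partner of the kinase TAK1, fell by 0.79 and Mapk9, a JNK kinase gene, fell by 0.45. None of Irak1, Irak2, Irak3 and Irak4 passed the test, with log2 fold changes of -0.03, -0.04, -0.38 and 0.15. With library totals in place of TMM factors, 2 genes were higher and 5 lower, and the median log2 fold change of all genes shifted by -0.15. Chuk lost its call without any Tnip1-/- library or Tnip1+/+ replicate 3 (0.36 to 0.39). Map3k7 lost it without any library except Tnip1+/+ replicate 2 (0.32 to 0.35), and Mapk9 without any except Tnip1+/+ replicate 3 (-0.46 to -0.31). The number higher was 3 without any single Tnip1-/- library or Tnip1+/+ replicate 3.

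Of 26 genes known to be induced by IL-1, many of them also by tumour necrosis factor or IL-17, 14 rose and 0 fell (median log2 fold change 1.41). The share called was 53.8%, against 45.1% of all tested genes in either direction and 22.3% as higher. The neutrophil chemokine gene Cxcl5 had 300 counts over the Tnip1-/- libraries and 6 over the Tnip1+/+ libraries (log2 fold change 5.94, SE 0.87, and 7.67 without Tnip1+/+ replicate 2). Csf3, the gene of the granulocyte growth factor G-CSF, had 185 and 6 counts, Tnip1-/- before Tnip1+/+ (5.26, SE 0.98, 4.51 without Tnip1-/- replicate 1 and 6.91 without Tnip1+/+ replicate 1). The acute-phase gene Saa3 stood at 1575, 996 and 1056 CPM in the Tnip1-/- libraries and at 46.3, 100.2 and 11.7 CPM in the Tnip1+/+ libraries (4.52, SE 0.75, and 5.38 without Tnip1+/+ replicate 2). Cxcl2, another neutrophil chemokine gene, had a log2 fold change of 3.75 (SE 0.68). These 4 genes had the largest rises of the list. The 12 genes not called included Nfkbia (log2 fold change 0.88), Tnfaip3 (0.61) and Ptgs2 (1.34). The number higher was 7 without Tnip1-/- replicate 1 and 8 without Tnip1+/+ replicate 3. Neutrophil markers rose with this list, and their part in it was not tested.

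Of 6 tested genes for other receptors and binding proteins of the IL-1 family, 1 was higher and 1 lower, a share called of 33.3% against 45.1% of all tested genes. Il18rap, the co-receptor gene for IL-18, rose by 2.14 (SE 0.27), and Il18bp, which encodes a soluble inhibitor of IL-18, fell by 1.69 (SE 0.24). The IL-36 receptor gene Il1rl2 stood at 69.2 ± 3.73 CPM in Tnip1-/- skin and 66.1 ± 4.54 CPM in Tnip1+/+ skin (SD, n = 3 each; log2 fold change 0.07). Il1rl1, the IL-33 receptor gene, did not pass the test either (0.33).

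**Figure D4:**
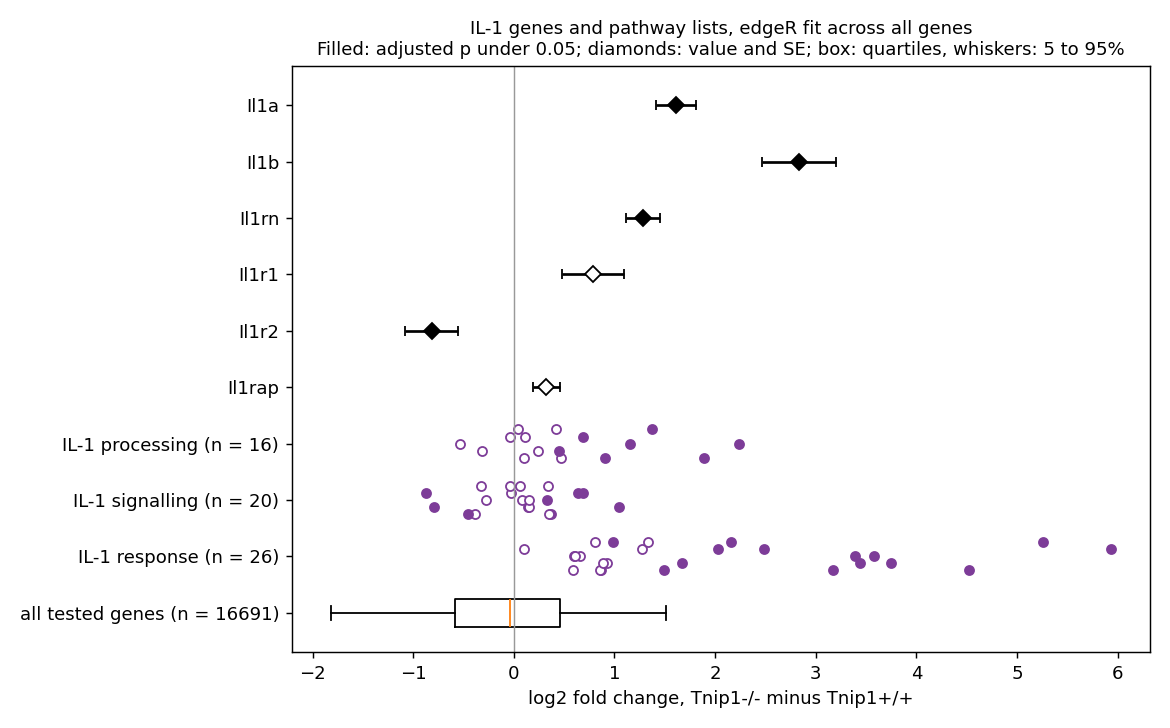
Log2 fold change (Tnip1-/- minus Tnip1+/+) of the IL-1 genes with SE, of the tested genes of 3 pathway lists, and of all tested genes as a box of quartiles with whiskers at 5% and 95%. Filled symbols have an adjusted p under 0.05; Il1b at 2.83 lies farthest right of the 6 IL-1 genes and Il1r2 at -0.82 farthest left.

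The genes whose log2 CPM over the 6 libraries was most like that of each IL-1 gene were listed among 13147 candidates. With 6 libraries and many genes that differ between genotypes, high values of Pearson's r are common, and over 0.95 stood 537 genes for Il1a, 420 for Il1b and 650 for Il1rn. For Il1r1, Il1r2 and Il1rap these numbers were 40, 53 and 133. Closest to Il1b were Tmem176a (r = 0.997), Il23a (0.997) and Saa3 (0.995). Il23a averaged only 0.128 CPM in Tnip1+/+ skin, near the level of 3 counts, so its r rests on few reads there. Closest to Il1a were Slc30a4 (0.997), Cdk5r1 (0.997) and Cd163l1 (0.994). Il1rn was most like Chi3l1 (0.998), Herc4 (0.998) and Canx (0.997). Among the receptors, Il1r1 was most like Cyth3 (0.995), Heatr6 (0.986) and Rapgef5 (0.985), Il1r2 most like Npdc1 (0.992), Cpz (0.989) and Adora2a (0.986), and Il1rap most like Txndc11 (0.997), Spty2d1 (0.994) and Uso1 (0.992).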

How the data were processed

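Counts per gene symbol were deposited by the authors, 1 file per library, with 34590 symbols and 5 summary lines. The summary lines held 26.7% to 30.3% of each file and were left out. The submitters' processing notes name HTSeq, STAR and BWA, besides CASAVA 1.7, R 3.2.3 and limma, and the genome build mm9. Their order, the annotation and the strand option are not given in the sources used here. Reads of the antisense genes that overlap Il1a, Il1b, Il1r2 and Il1rap could therefore not be told apart with certainty. The libraries came from 6 mice, and total RNA was depleted of ribosomal RNA, per the labels' protocols.

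Computed here, in R 4.3.3: edgeR 4.0.16 with TMM factors, the default filterByExpr filter, a quasi-likelihood fit of genotype and Benjamini-Hochberg adjustment over 16691 genes. The SE was derived from the F statistic. A gene with 3 counts stood at 0.0968 to 0.154 CPM, and Il1b, the lowest member, at 123 counts or more. Ratios used counts per kb of exon length (GENCODE M21) and an exact two-sided permutation test in scipy 1.17.1. In simulated data for Tnip1-/- against Tnip1+/+, 200 genes were changed and 16507 genes were tested. Recovered were 30.0% of genes changed by 1 and 88.9% of those changed by 2 on the log2 scale, with 6 false calls of 124. The real comparison called 45.1% of tested genes, a far larger share, so its recovery can differ from these values. The members, gene lists and tests were chosen with earlier results of these data known. Named genes were the members, the called genes of the processing and signalling lists, the 4 largest changes of the response list, and the 3 genes most like each member by Pearson's r on log2 CPM (prior count 2) among genes averaging 1 CPM or more; other genes were named after their values were seen. Alternatives used DESeq2 1.42.0, limma 3.58.1, other scalings and filters, covariates, a replicate block, and each library left out. Same-numbered libraries did not deviate together more than others did. With 3 libraries of each genotype this cannot tell whether the numbers mark pairs, which the labels do not state.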

Additional observations from a re-analysis of the deposited data

How the results depend on the processing

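Il1a, Il1b and Il1rn kept their calls in all 16 alternatives run, sex as a covariate (added after seeing the data) included. No log2 fold change or ratio turned its sign. The call of Il1r2 was the weakest: the number of members lower was 0 with the muscle and fat score as covariate (Il1r2 at -0.89) and 0 to 1 without single libraries (-1.0 to -0.50). That covariate moves with genotype and leaves 2282 genes called in place of 7525, and the cause was not tested. Il1r1 passed with DESeq2 (0.80) and ranged from 0.35 to 1.05 without single libraries, and Il1rap from 0.27 to 0.47. With library totals 34.1% of calls were higher, against 49.6% with TMM factors. Alternatives for the pathway lists were added after seeing the data. The processing list had 4 genes higher with library totals, upper-quartile factors or the covariate, and 4 to 7 without single libraries. The signalling list had 2 higher and 5 lower with library totals, 3 higher without a filter, 0 higher and 1 lower with the covariate, and 3 to 5 higher without single libraries. The response list had 7 higher with the covariate and 7 to 16 without single libraries.

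With the replicate number as a block, the members stood at 1.58 (Il1a), 2.95 (Il1b), 1.27 (Il1rn), 0.68 (Il1r1), -0.79 (Il1r2) and 0.33 (Il1rap), with the same calls, and 6465 genes were called. The signalling list had 3 higher under the block. Same-numbered libraries correlated at 0.01, -0.21 and 0.19 in their deviations from the group means. Ratios under the block had the same differences by construction, since the mean over same-numbered pairs equals the difference of the group means.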
